A study of Mus musculus with 4 samples.

Results

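The cells described here are the 273 leukaemia cells, of 5456 kept cells in all, with the highest combined level of Prg3, Clec4a2, Mogat2 and Retnla. A cell was kept where mitochondrial transcripts made up at most 10% of its unique molecular identifiers (UMIs, each standing for 1 captured transcript). Its score was the mean over the 4 genes of the natural log of 1 plus the UMIs per 10000, and the members are the top 5% by this score. The 4 genes had been picked because they lead a cluster of these same cells, so their levels are given as a description and every value of members against other cells describes a group that was chosen from the measurements. No test was made, because cells are not replicates and no sample had a replicate. Checked against markers, members carried high levels of granulocyte transcripts as a group, with neutrophil granule genes in part of them. Of the eosinophil genes that could have gone with Prg3, only Prg2 was abundant, and Epx, Il5ra, Ccr3 and the ribonucleases Ear1, Ear6, Ear10 and Ear14 had no UMI in any member. They are therefore called by their rule and given no cell type name.

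Prg3 encodes a paralog of the eosinophil granule major basic protein, Prg2, and both are made while granulocytes mature in the bone marrow. Clec4a2 encodes an inhibitory C-type lectin receptor of myeloid cells, Mogat2 an enzyme that turns monoacylglycerol into diacylglycerol and is best known from the gut, and Retnla a secreted resistin-like protein known from alternatively activated macrophages and from eosinophils. Granulocytes fill their granules in sequence, with primary granule proteases made first and secondary granule proteins such as Camp, Ngp and Lcn2 made later under the transcription factor C/EBP epsilon (Cebpe), which mice need for mature neutrophils and eosinophils. MLL-AF9 is a fusion oncogene of acute myeloid leukaemia whose cells can keep part of this myeloid differentiation.

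The 4 samples were a Hif-1a KO leukaemia with chemotherapy, a Hif-1a KO leukaemia with PBS, a Hif-1a wt leukaemia with chemotherapy and a Hif-1a wt leukaemia with PBS, 1 sample each. Donor cells were c-Kit+ marrow cells of Hif-1alpha Lox/Lox, CreERT2 mice infected with an MLL-AF9 retrovirus, so all 4 groups carry the floxed alleles, the Cre and the oncogene; the labels do not name the promoter that drives the Cre. Primary leukaemias were passed to C57BL6 mice with a listed age of 11 weeks, which got 1 mg tamoxifen or vehicle for 5 days from day 10. Chemotherapy combined 5 days of cytarabine (100 mg/kg) and 3 days of doxorubicin (3 mg/kg), PBS was its control, and GFP+ marrow cells were sorted 3 days after the last dose for 10x Chromium 3' V2 libraries. Barcodes in the count table end in a suffix from 1 to 4, and the sources used here do not give the sample of each suffix. Suffixes are therefore 4 samples of unknown genotype and treatment, no comparison of Hif-1a genotypes or of chemotherapy with PBS was made, and members were set against other kept cells of their own suffix, 3 or 4.

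Members made up 7.57% of the kept cells of suffix 3 (123 of 1625 cells, exact binomial 95% interval 6.33 to 8.96) and 9.74% of those of suffix 4 (137 of 1406, 8.24 to 11.4). They made up 0.341% of suffix 1 (4 of 1174 cells, 0.0929 to 0.870) and 0.719% of suffix 2 (9 of 1251, 0.329 to 1.36). Suffixes 3 and 4 thus held 260 of the 273 members, 95.2%, and gave all ratios below, since the rule for a ratio was at least 30 cells on each side. Members had a median of 5322 UMIs and other kept cells 5828, with 2.02% and 2.75% mitochondrial UMIs. Of 16-base barcodes, 15 were found with more than 1 suffix among kept cells, and none of those belonged to a member. Intervals here and below cover counting error only.

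The score genes themselves were detected unevenly. Clec4a2 had a UMI in 272 members and Mogat2 in 230, but Prg3 in 68 and Retnla in 28. The commonest combination was Clec4a2 with Mogat2 and no other score gene, in 179 members, followed by Prg3 with both of them in 42, Prg3 with Clec4a2 in 19 and Clec4a2 with Retnla in 15. A single score gene was enough for 6 members, and 4 members had all 4. Another 151 kept cells had both Clec4a2 and Mogat2 and fell short of the threshold. The 2 lowest member scores were 0.728 and 0.729, the 2 highest scores of other cells were both 0.726, and 32 members and 48 other cells lay within 0.05 of the lowest member, so no gap separates members from other cells. No UMI of any score gene was found in 78.0% of kept cells.

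Summed over cells and scaled to UMIs per 1000000 UMIs (CPM), Clec4a2 stood at 950.3, 535, 707 and 779 CPM in the members of suffixes 1 to 4, against 6.69, 12.6, 83.5 and 89.8 CPM in other cells. Mogat2 stood at 226, 452, 347 and 281 CPM in members, against 6.03, 9.07, 14.5 and 9.11 CPM in other cells. Prg3 stood at 45.3, 50.2, 134 and 144 CPM in members, against 1.57, 1.09, 6.50 and 4.62 CPM in other cells. Retnla had no UMI in the members or the other cells of suffixes 1 and 2, and stood at 187 and 317 CPM in the members of suffixes 3 and 4, against 1.52 and 1.67 CPM in other cells. All 4 genes are thus high in members of suffixes 3 and 4, and the 13 members of suffixes 1 and 2 were carried by Clec4a2, Mogat2 and a few UMIs of Prg3. Clec4a2 has close paralogs beside it on chromosome 6, so reads could be divided among them.

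**Figure D1:**
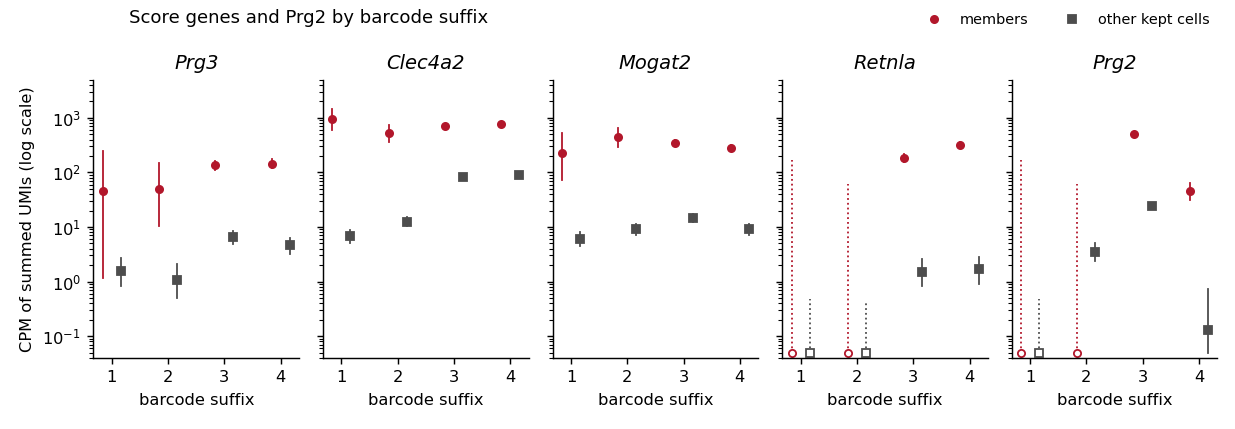
CPM of summed UMIs (log scale) of the 4 score genes and of Prg2 by barcode suffix, members as red circles left of other kept cells as grey squares, with exact Poisson 95% intervals; open symbols at the lower edge are values of 0 with a dotted line up to the interval's upper limit. Score genes lie above other cells wherever members had a UMI, Retnla appears in suffixes 3 and 4 alone, and Prg2 stands at 497 and 44.9 CPM in members of suffixes 3 and 4 and at 0 in members of suffixes 1 and 2.

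Of these genes only Prg3 and Prg2 are neighbours. In GRCm38, Prg3 lies at chr2:84988215-84993886 and Prg2 beside it at chr2:84980461-84983632, both on the plus strand. Clec4a2 lies at chr6:123106428-123143999 (plus), Mogat2 at chr7:99219084-99238619 (minus) and Retnla at chr16:48842551-48844461 (plus). Because Cebpe was higher in members, sequence upstream of the RefSeq start site of the score genes is shown for Prg3 (chr2:84987965-84988214), Clec4a2 (chr6:123122440-123122621) and Retnla (chr16:48842359-48842550), from RefSeq on GRCm38.p6, plus strand, 5′ to 3′, with annotated exon bases trimmed off. The Clec4a2 window lies inside the GENCODE span of the gene given above and not at its 5′ end, so it stands for the RefSeq start site alone. Capitals mark matches to the C/EBP pattern TTNNGNAA or its reverse complement TTNCNNAA, where N is any base.
Prg3: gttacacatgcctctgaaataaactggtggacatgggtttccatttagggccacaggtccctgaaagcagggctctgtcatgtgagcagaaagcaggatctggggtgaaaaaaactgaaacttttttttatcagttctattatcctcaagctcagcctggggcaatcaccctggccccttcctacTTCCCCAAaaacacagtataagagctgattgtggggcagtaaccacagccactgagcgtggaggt
Clec4a2: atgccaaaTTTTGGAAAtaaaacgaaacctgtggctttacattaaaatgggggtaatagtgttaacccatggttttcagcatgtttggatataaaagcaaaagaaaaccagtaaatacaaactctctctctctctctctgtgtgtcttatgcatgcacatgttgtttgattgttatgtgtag
Retnla: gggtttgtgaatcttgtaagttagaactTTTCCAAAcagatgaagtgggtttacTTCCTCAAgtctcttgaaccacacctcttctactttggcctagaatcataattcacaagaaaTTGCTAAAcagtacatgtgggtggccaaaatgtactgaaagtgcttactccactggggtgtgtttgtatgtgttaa
There was 1 match upstream of Prg3, 2 overlapping matches upstream of Clec4a2 and 3 upstream of Retnla. The pattern is common: 36.9% of 32851 promoter windows of 250 bases held it. The GATA pattern AGATAA, found in 9.99% of windows on either strand, was in none of these sequences, and the PU.1 pattern GAGGAA, found in 23.3%, had 1 match, upstream of Retnla on the other strand, where it overlaps a C/EBP match. These matches are descriptions of letters and not of binding.

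Prg2, the major basic protein gene, was the only eosinophil granule gene with more than a trace in members, and it came from few cells. It stood at 497 and 44.9 CPM in members, against 24.5 and 0.128 CPM in other cells of suffixes 3 and 4. The members' 95% intervals were 446 to 552 and 31.1 to 62.7 CPM, and the members' UMIs were 22.2 times those expected from the other cells. Yet all 382 Prg2 UMIs of members came from 18 of 273 cells, and 1 cell held 164 of them. Without the top cell of each suffix the members' level would be 264 CPM in suffix 3 and 13.3 CPM in suffix 4. Prg2 was also found in 40 other kept cells, 8 of which had 2 UMIs or more and 1 of which had 114. Prg2-positive members made up 9.76% of members of suffix 3 (5.14 to 16.4) and 4.38% of suffix 4 (1.62 to 9.29), against 2.33% (1.63 to 3.23) and 0.0788% (0.00200 to 0.438) of other cells. Basophil- and mast-gene-high cells (the top 5% of kept cells by Cpa3, Mcpt8, Fcer1a and Ms4a2) serve here as the background population. In these suffixes they had a median of 3056 UMIs. Their shares were 2% of 50 cells (0.0506 to 10.6) and 0% of 27 cells (0 to 12.8). These intervals overlap those of members, so a difference from members was not resolved.

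**Figure D2:**
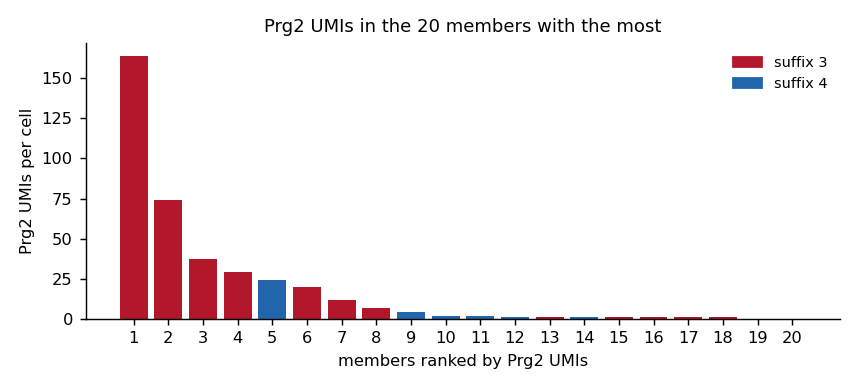
Prg2 UMIs per cell (bar height, from 0) in the 20 members with the most, ranked along the horizontal axis and coloured by suffix. The first member held 164 UMIs and the second 74, and ranks past 18 are at 0.

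Of the 18 Prg2-positive members, 13 had Prg3, a score gene found in 68 of the 273 members, and 9 were also among the cells highest in neutrophil genes. None had Retnla, but only 28 of 273 members did, so an overlap of 0 says little. All 11 members with 2 or more Prg2 UMIs also had Cebpe and Cd63, a tetraspanin of granule membranes, which were found in 223 (81.7%) and 239 (87.5%) of all members, and 10 of the 11 had Prg3.

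Several other eosinophil-defining genes were at 0, while Siglecf, described below, was not. Epx (eosinophil peroxidase), the ribonucleases Ear1, Ear6, Ear10 and Ear14, the interleukin-5 receptor subunit Il5ra, the eotaxin receptor Ccr3 and the interleukin-33 receptor Il1rl1 had no UMI in any of the 5456 kept cells. Gata1, a factor needed for eosinophils, had no UMI in members, and Ear2 had 3. A count of 0 in 273 members allows a share of up to 1.10% of members with a UMI, and 1.95 CPM over all members. The eosinophil granule list as a whole summed to 497 and 48.8 CPM in members of suffixes 3 and 4, against 24.8 and 1.03 CPM in other cells, of which Prg2 is nearly all.

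Across all genes, 8497 reached 5 CPM on either side. A gene was counted as higher or lower where the median over suffixes 3 and 4 of log2((CPM + 1)/(CPM + 1)), members over other cells, passed 1.5-fold, both suffixes went the same way, and the exact interval of observed over expected UMIs left out 1. By this rule 597 genes were higher in members (7.03%) and 1276 lower (15.0%). The median log2 ratio over all measured genes was -0.22, so more genes sat lower than higher in members, and 31.9% of the calls were in the higher direction. With ratios centred on that median the higher share was 60.4%, and with median-of-ratios scaling 50.0%. The count of higher against lower genes therefore depends on the scaling, and values of lists are read against -0.22. Neutrophil-gene-high cells, described below, made up 39.9% of members and 3.16% of other kept cells, so the counts of each list without them are given as well. Single genes counted below for all members were in part not counted without these cells. Among them were Zeb2 (-0.36), Hspa5 (-0.39), Calr (-0.27), Lpl (-0.16), Il3ra (-0.32) and Stat3 (0.43). The part of these cells in other single values given for all members alone was not tested.

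Genes of neutrophil secondary granules were higher in members almost without exception. Of 14 listed genes measured, 13 were higher and 0 lower, with a median log2 ratio of 2.21. Camp (chr9:109847379-109849617, minus), the cathelicidin antimicrobial peptide, stood at 14094 and 13195 CPM in members, against 2232 and 1857 CPM in other cells of suffixes 3 and 4. S100a8 stood at 28454 and 12282 CPM in members, against 4678 and 2008 CPM in other cells, and its calprotectin partner S100a9 at 22428 and 13787 CPM in members, against 3643 and 2234 CPM in other cells. Ngp, a cathelin-like granule protein, stood at 8220.3 and 7571 CPM in members, against 1424 and 1074 CPM in other cells. For each of these 4 genes both suffixes had members far above other cells. Lcn2, which binds bacterial siderophores, and Mmp9, gelatinase B, had log2 ratios of 2.77 and 3.57 (2399 against 351 CPM and 139 against 10.7 CPM). Mmp8, the neutrophil collagenase, was the listed gene that passed neither way, at 0.60.

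Other leading genes included further granulocyte genes. The stefin A genes Stfa1, BC100530, Gm5483 and Stfa2l1, which encode cysteine protease inhibitors, had log2 ratios of 2.83, 2.88, 2.93 and 2.75; they are near-identical copies whose reads may be divided among them, so the single values are uncertain. Fcnb, a ficolin of innate immunity, stood at 728 against 102 CPM, Pglyrp1, a peptidoglycan-binding granule protein, at 936 against 173 CPM and Mapk13, the p38 delta kinase, at 109 against 14.9 CPM (medians over suffixes 3 and 4). Cd63 (chr10:128900989-128912822, plus) stood at 1056 and 949 CPM in members, against 227 and 181 CPM in other cells. Of genes related to the score gene Retnla, the resistin-like and chitinase-like list, all 3 measured, Chil3 (6572 against 1057 CPM), Retnlg (183 against 22.5 CPM) and Chil1 (50.8 against 10.4 CPM), were higher, with a median log2 ratio of 2.5, and 1 of 2 without neutrophil-gene-high cells. Retnlg lies near Retnla on chromosome 16 and was 311 CPM in members of suffix 3 against 55.4 CPM in those of suffix 4, so the suffixes differ in it.

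These neutrophil transcripts were not spread evenly over members. The UMIs of Ngp, Camp, S100a8 and S100a9 together made up, per 10000 UMIs of a cell, a lower quartile of 6.30, a median of 52.7 and an upper quartile of 939 in the 260 members of suffixes 3 and 4, against 1.92, 4.03 and 7.21 in 2771 other cells. The highest value was 3192 in members and 4147 in other cells. Members were thus found over the whole range, from cells with none of these UMIs to cells in which they make up a large part of the RNA. Neutrophil-gene-high cells, the top 5% of kept cells by the same score on those 4 genes, numbered 273, and 109 of them were members, 39.9% of each group. Members shared 5 cells with the monocyte-gene-high cells (Csf1r, Ccr2, Fn1, Klf4), 6 with the primary-granule-gene-high cells (Elane, Prtn3, Ctsg, Mpo) and 0 with the basophil- and mast-gene-high cells (Cpa3, Mcpt8, Fcer1a, Ms4a2).

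**Figure D3:**
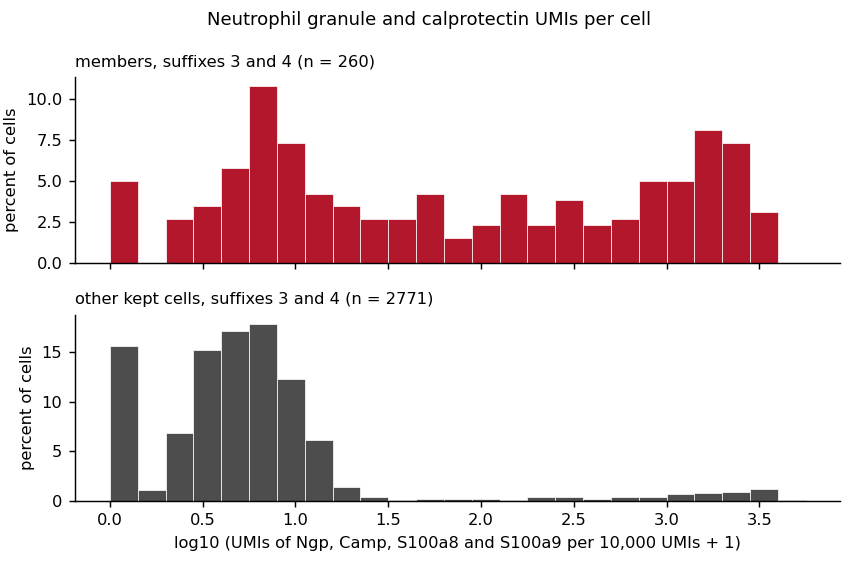
Percent of cells (vertical axis) by log10 of the summed Ngp, Camp, S100a8 and S100a9 UMIs per 10000 UMIs plus 1 (horizontal axis) in suffixes 3 and 4, members above and other kept cells below. Members spread over the whole axis with a median of 52.7 per 10000, against 4.03 in other cells.

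Members among and outside the neutrophil-gene-high cells both had Cebpe and Cd63 above other kept cells of the same suffixes, and differed in Camp, which the split used. Suffixes 3 and 4 hold 102 of the 109 neutrophil-gene-high members and 158 of the 164 remaining ones. There Camp stood at 27454 and 39987 CPM in neutrophil-gene-high members and 166 and 90.4 CPM in remaining members. Other kept cells had Camp at 2232 and 1857 CPM, but they include neutrophil-gene-high cells. With those left out, as from the remaining members, other kept cells had Camp at 115 and 60.1 CPM. Cd63 stood at 957 and 1069 CPM and 1161 and 890.4 CPM in those sets, against 227 and 181 CPM in other kept cells. Cebpe stood at 590.2 and 675 CPM and 437 and 397 CPM, against 109.8 and 99.1 CPM in other kept cells. Siglecf, a lectin of eosinophils and some macrophages, stood at 30.8 and 24.1 CPM in neutrophil-gene-high members and 81.6 and 70.8 CPM in remaining members, with pooled intervals over these suffixes of 16.3 to 44.9 and 57.9 to 96.0 CPM, against 21.4 and 21.4 CPM in other kept cells. The score genes Prg3 and Retnla stood at 36.4 and 40.2 CPM and 61.5 and 273 CPM in neutrophil-gene-high members and at 236 and 195 CPM and 318 and 338 CPM in remaining members.

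The comparison was therefore repeated with neutrophil-gene-high cells left out of both sides, which kept 66 and 92 members of suffixes 3 and 4. Of 8557 genes measured, 551 were higher (6.44%) and 903 lower (10.6%), with an all-gene median of -0.16. In both comparisons 400 genes were higher, which is 67.0% of the 597 and 72.6% of the 551. Lower in both were 707 genes, 55.4% of the 1276 and 78.3% of the 903, and 0 genes were called in opposite directions. The cells compared here are all part of the first comparison as well, so this overlap is partly built in. Cd63 had a log2 ratio of 2.62 (1025 against 165 CPM) and Cebpe 2.36 (417 against 80.7 CPM), against 2.26 for Cebpe with all members. S100a8 had 3.38 (2499 against 248 CPM), Fcnb 3.26 (325 against 32.7 CPM), Lcn2 2.81 (467 against 65.3 CPM) and Chil3 2.44 (2199 against 398 CPM). Camp was no longer counted, at 0.55 (128 against 87.7 CPM), and S100a9 had 1.10 (265 against 131 CPM). The secondary granule list kept 8 of 11 measured genes higher, with a median of 1.32. Mgll, a monoacylglycerol lipase, was higher at 3.72 (42.5 against 2.35 CPM). Ltb4r1, a receptor for leukotriene B4, was higher at 2.28 (357 against 72.8 CPM).

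Set against the other neutrophil-gene-high cells of the same suffixes, the neutrophil-gene-high members had similar levels of the leading granulocyte genes and lower levels of some primary granule and replication genes. There were 57 against 90 cells in suffix 3 and 45 against 57 in suffix 4, and 493 genes of 8118 were higher (6.07%) and 303 lower (3.73%), with an all-gene median of 0.01. Cebpe differed by 0.26 (633 against 533 CPM), Cd63 by 0.19 (1013 against 885 CPM), Camp by -0.14 (33721 against 36698 CPM) and Lcn2 by -0.05 (5198 against 5359 CPM), none of them counted. Prg2 was higher at 3.95 (106 against 13.2 CPM), from 63 and 9 UMIs in members of suffixes 3 and 4. Ltf, lactoferrin, was lower at -1.28 (542 against 1324 CPM), as were Elane at -0.85 (2617 against 4364 CPM), Ms4a3 at -0.86 (336 against 597 CPM) and the replication genes Ccna2 and Tk1 at -2.02 and -1.49. Of 10 primary granule genes measured 4 were lower and 0 higher, and of 14 secondary granule genes 4 were lower and 1 higher (Mmp9, 262 against 171 CPM). Gfi1, a repressor that guides granulocyte fate, was higher at 0.60 (93.3 against 60.8 CPM), Il3ra at 1.37 and Gadd45a at 0.83.

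Granulocyte transcription factors were divided. Of 16 measured in the list, 6 were higher and 5 lower in members. Cebpe (chr14:54710360-54712174, minus) stood at 515 and 488 CPM in members, against 109.8 and 99.1 CPM in other cells, a log2 ratio of 2.26, and had a UMI in 84.6% and 77.4% of members against 30.6% and 26.7% of other cells and 24.0% and 14.8% of basophil- and mast-gene-high cells. Gfi1 (chr5:107716657-107726036, minus) stood at 77.1 and 83.2 CPM in members, against 17.0 and 19.9 CPM in other cells. Id1 and Id2, inhibitors of basic helix-loop-helix factors, were higher at 1.35 and 0.79, Myb, a progenitor factor needed by MLL-AF9 leukaemia, at 0.70 and Trib1, a pseudokinase that promotes degradation of C/EBP alpha, at 2.08 (10.4 against 1.70 CPM). Lower were Gata2 at -2.02 (6.76 against 28.9 CPM), Irf8, which directs monocyte fate, at -1.72 (179.6 against 579 CPM), Nfil3 at -1.26, Runx1 at -0.90 and Cebpa at -0.66. Spi1, which encodes PU.1, Cebpb, Xbp1, Ikzf1 and Fli1 were not counted, with log2 ratios of 0.33, -0.05, -0.01, 0.02 and 0.55. Without neutrophil-gene-high cells 5 were higher and 3 lower, and Id2, Runx1 and Cebpa were no longer counted.

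Surface genes used to describe eosinophils and other granulocytes were partly higher. Of 10 measured, 4 were higher and 0 lower, with a median of 0.49. Siglecf (chr7:43351341-43359531, plus) stood at 55.7 and 55.4 CPM in members, against 21.4 and 21.4 CPM in other cells. It had a UMI in 26.8% and 25.5% of members (19.2 to 35.6 and 18.5 to 33.7), against 10.5% and 11.2% of other cells. In basophil- and mast-gene-high cells the shares were 12.0% and 14.8%. Those rest on 50 and 27 cells, with intervals of 4.53 to 24.3 and 4.19 to 33.7 that overlap those of members. Itgam, the CD11b integrin chain, was higher at 0.87 (83.9 against 45.7 CPM), and the paired immunoglobulin-like receptors Pilra and Pilrb1 at 1.95 and 2.12. Csf2rb, the common beta chain of the interleukin-3, interleukin-5 and GM-CSF receptors, and Csf2ra, the GM-CSF receptor alpha chain, had 0.45 and 0.52 and were not counted. Without neutrophil-gene-high cells 7 of the 10 were higher and Cd24a was lower, with a median of 0.65, and Siglecf reached 1.78 (76.2 against 21.4 CPM). Adgre1, which encodes F4/80, was then higher as well, at 0.72.

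Most enzymes that make lipid mediators were higher. Of 6 measured 5 were higher and 0 lower, with a median of 1.48: Lta4h, which makes leukotriene B4, stood at 501 and 433 CPM in members, against 135 and 126 CPM in other cells, Ptgs1, cyclooxygenase 1, at 70.0 and 73.9 CPM in members, against 14.6 and 15.1 CPM in other cells and Alox5, 5-lipoxygenase, at 21.4 and 21.1 CPM in members, against 5.09 and 3.98 CPM in other cells. Pla2g4a and Ptges were higher at 0.90 and 1.12, and Alox5ap, which presents arachidonate to Alox5, was not counted at 0.50. The leukotriene C4 synthase Ltc4s and the 15-lipoxygenase Alox15, both known from eosinophils, did not reach 5 CPM. Without neutrophil-gene-high cells 4 of 6 were higher, with a median of 1.28.

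Genes that handle triglycerides and fatty acids, to which the score gene Mogat2 belongs, were divided. Of 20 measured, 6 were higher and 4 lower, with a median of -0.23, close to that of all genes. Dgat2, which adds the last acyl chain to the diacylglycerol that Mogat2 makes, stood at 35.7 and 37.0 CPM in members, against 5.85 and 5.26 CPM in other cells, and Mgll, which splits monoacylglycerol, at 35.7 and 38.3 CPM in members, against 2.82 and 4.11 CPM in other cells. Agpat2, Abhd5, Plin3 and Dgat1 were higher at 1.27, 1.16, 0.90 and 0.84. Lower were Fabp5, a fatty acid binding protein, at -1.82, Agpat1 at -1.49, Acsl5 at -0.63 and Lpl, lipoprotein lipase, at -0.80. Lpl was uneven, at 34.3 CPM in members of suffix 3 and 81.8 CPM in those of suffix 4, against 100.4 and 86.0 CPM in other cells, and its ratio turned to 0.24 for members chosen without Mogat2 in the score. Fasn and Scd2, which make fatty acids, were not counted. Without neutrophil-gene-high cells 6 of 20 were higher and 2 lower, with a median of -0.02.

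Relatives of Clec4a2 did not follow it. Of 8 other C-type lectin-like receptors measured, Clec5a was higher at 1.25 and 4 were lower: Clec4a1 at -2.44, Clec4d at -1.99, Clec10a at -1.76 and Clec4a3 at -0.79. Clec4a1, a direct neighbour in the family, had 0 and 5.28 CPM in members, against 13.3 and 11.9 CPM in other cells, and its ratio turned to 0.37 for members chosen without Mogat2. Clec12a, an inhibitory receptor of myeloid cells, was abundant on both sides and not counted (1414 against 1023 CPM, 0.47). Without neutrophil-gene-high cells 2 of 8 were higher and 3 lower.

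Listed genes of other myeloid lineages and of progenitors were more often lower than higher in members. Since 1276 of all 8497 measured genes were lower and 597 higher, that direction alone does not mark a list. Monocyte markers were lower for 10 of 13 measured and higher for 1, with a median of -1.59. Ccr2, the receptor that brings monocytes out of the marrow, stood at 8.57 and 9.24 CPM in members, against 64.9 and 66.3 CPM in other cells, and Ctss, cathepsin S, at 40.0 and 73.9 CPM in members, against 309 and 307 CPM in other cells. Klf4, a factor of monocyte differentiation, and F13a1, coagulation factor XIII, were lower at -1.99 and -2.31; Klf4 turned to 0.16 for members chosen without Mogat2. Cd14, a co-receptor for lipopolysaccharide, was the marker that was higher, at 1.65 (32.1 against 9.51 CPM). All 6 measured macrophage markers were lower, among them Wfdc17 at -1.23 (478 against 1137 CPM) and Trem2 (2.69 against 16.1 CPM). Without neutrophil-gene-high cells 8 of 13 monocyte markers and 3 of 6 macrophage markers were lower.

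Of 6 dendritic cell and MHC class II genes measured, 4 were lower. Cd74, the invariant chain, had 0 UMIs in all 273 members, against 31.4 and 27.8 CPM in the other cells of suffixes 3 and 4. Taking a floor of 3 counts per suffix it was at least 7.33-fold and 7.03-fold lower in members. Those values rest on few cells, since Cd74 was found in 75 of 2771 other cells of suffixes 3 and 4 (2.71%), while 0 of 273 members allows a share of up to 1.10%. The list's median was -1.91, and -0.80 with the 3 genes at 0 (Cd74, H2-Aa, Cd209a) set to their floor. Of 9 stem and progenitor markers 5 were lower, with Flt3, a receptor of early progenitors, at 14.3 and 9.24 CPM in members, against 107 and 123 CPM in other cells, Sox4 at -2.42 and Cd34 at -1.71 (39.8 against 132 CPM). Of 5 basophil and mast cell markers 3 were lower, with the protease Cpa3 at 2.86 and 3.96 CPM in members, against 89.8 and 57.6 CPM in other cells, and Kit, the stem cell factor receptor, was higher at 0.77 (10.2 against 5.50 CPM), but stood at -0.56 with cells thinned to equal depth. Erythroid and T and NK cell genes had no UMI in members. Of B cell, megakaryocyte and stromal or endothelial lists 1 gene each was measured: Cd79b at -0.30 (not counted), Gp9 at 2.10 (higher, 7.37 against 0.646 CPM) and Pecam1 at -1.36 (lower). Without neutrophil-gene-high cells 5 of 6 dendritic cell and MHC class II genes, 4 of 9 stem and progenitor markers and 3 of 6 basophil and mast cell markers were lower. Of the last, 1 was higher, and Pecam1 stayed lower at -0.82. Gp9 was then under the 5 CPM limit (1.97 against 0.259 CPM), so its ratio was not read.

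**Figure D4:**
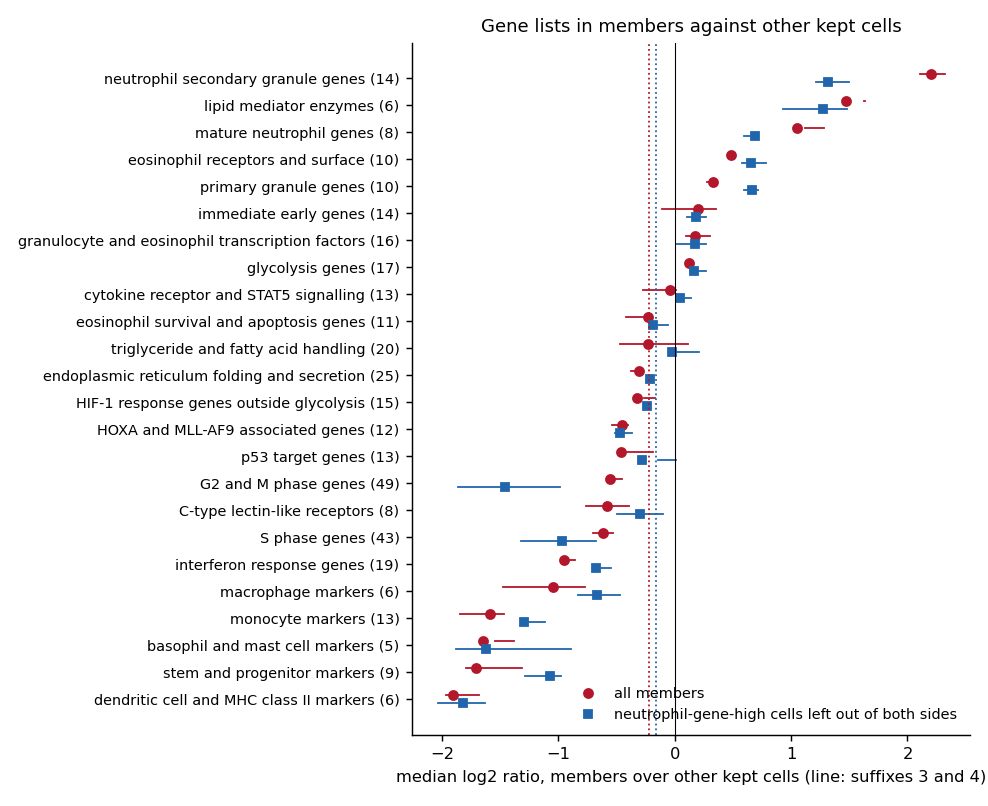
Median log2 ratio of each gene list with at least 5 genes measured (number in brackets, for all members), members over other kept cells, for all members (red circles) and with neutrophil-gene-high cells left out of both sides (blue squares). Lines join the medians of suffixes 3 and 4, which need not enclose the median over genes; dotted lines mark the medians of all genes, -0.22 and -0.16, and the mature neutrophil list was chosen after values had been seen.

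Genes of the leukaemia programme and of the cell cycle were more often lower than higher. The same held over all 8497 measured genes, with 1276 lower and 597 higher. This direction alone therefore does not set these lists apart. Of 12 HOXA and MLL-AF9 associated genes measured, 4 were lower and 1 higher, with a median of -0.45, and without neutrophil-gene-high cells 4 and 1, with a median of -0.47. Bcl2, which blocks apoptosis, stood at 44.3 and 46.2 CPM in members, against 163 and 165 CPM in other cells. Mef2c, Zeb2 and Hoxa7 were lower at -0.98, -0.80 and -0.80, Myc was higher at 0.64 (22.0 against 13.8 CPM), and Hoxa9, Meis1 and Cdk6 were not counted, at -0.54, -0.32 and 0.00. Among S phase genes 21 of the 43 measured were lower and none was higher (median -0.61). For G2 and M phase this held for 18 of 49, again with 0 higher (median -0.56). Mcm4, a subunit of the replicative helicase, was at -1.15, Rrm2, a subunit of ribonucleotide reductase, at -0.70, Cenpa, the centromeric histone, at -1.32 and Top2a at -0.59.

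The cell cycle difference was larger without neutrophil-gene-high cells, where 33 of 43 S phase genes and 31 of 49 G2 and M phase genes were lower, with medians of -0.97 and -1.46. Ube2c, which drives mitotic exit, then had a log2 ratio of -3.76 (4.41 against 70.1 CPM) and Cenpa -3.21 (12.3 against 86.6 CPM). Summed over the list, G2 and M phase genes of suffixes 3 and 4 stood at 3536 and 5344 CPM in members among the neutrophil-gene-high cells and 1787 and 2449 CPM in the remaining members, against 4366 and 5903 CPM in neutrophil-gene-high cells that were no members and 3544 and 4062 CPM in all other kept cells. S phase genes stood at 1941 and 2186 CPM and 1015 and 1549 CPM in those sets of members, against 2600 and 2658 CPM and 2396 and 2464 CPM. Median depth of the sets over all suffixes was 5588 and 5034 UMIs, against 6258 and 5828 UMIs, and the part of depth in these values was not tested.

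Primary granule genes were divided: of 10 measured 4 were higher and 2 lower, with a median of 0.33, and without neutrophil-gene-high cells 5 were higher and 1 lower. Ms4a3, a membrane protein of granulocyte progenitors, stood at 329.8 and 205 CPM in members, against 71.1 and 55.2 CPM in other cells, Prss57 was higher at 0.94, and Elane, neutrophil elastase, was not counted at 0.56 (3949 against 2674 CPM). Ctsg, cathepsin G, was lower at -0.82 (806 against 1429 CPM). The 13 members of suffixes 1 and 2 stood apart: the primary granule list summed to 38101 and 34637 CPM there, against 15678 and 18717 CPM in other cells, while members of suffixes 3 and 4 had 10045 and 9534 CPM, against 7984 and 8481 CPM. A list of 10 mature neutrophil genes chosen after values had been seen had 5 of 8 measured genes higher, with Fpr2 at 2.42 and Cxcr2, the receptor for neutrophil release, at 2.08 (12.5 against 2.13 CPM), and 4 of 6 without neutrophil-gene-high cells.

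Of 25 endoplasmic reticulum folding genes 4 were lower and 0 higher (median -0.31), with Hspa5 at -0.66 and Calr at -0.68. Of 13 cytokine receptor and STAT5 genes Stat3 was higher at 0.60 and Pim1 and Il3ra lower at -1.18 and -0.62 (median -0.04). Glycolysis genes had 2 of 17 higher, Gpi1 at 1.03 (1133 against 553 CPM) and the glucose carrier Slc2a3 at 2.32 (14.7 against 1.85 CPM), and 0 lower (median 0.12). Without neutrophil-gene-high cells Slc2a3 was under the 5 CPM limit (0.983 against 1.12 CPM), so its ratio of -0.30 was not read. HIF-1 response genes outside glycolysis had 2 of 15 higher, Bnip3l and Fam162a, and 4 lower, Ddit4, Egln3, Mif and Ndrg1 (median -0.32). Hif1a itself stood at 21.4 and 23.8 CPM in members, against 30.1 and 26.8 CPM in other cells and was not counted; a 3' count can persist after a floxed deletion, so it checks nothing about the genotypes. Interferon response genes were lower for 10 of 19 and higher for 0 (median -0.95), with Irf7 at -1.83 and Ifit3 at -2.85. Immediate early genes had 2 of 14 higher and 2 lower (median 0.20), p53 targets 1 of 13 higher, Gadd45a at 2.06, and 4 lower (median -0.46), and survival genes 0 of 11 higher and 3 lower (median -0.23). Without neutrophil-gene-high cells the counts higher and lower were 0 and 0 of 25 for endoplasmic reticulum folding, 0 and 1 of 13 for cytokine receptors and STAT5, 1 and 0 of 16 for glycolysis and 1 and 2 of 15 for HIF-1 response. They were 0 and 7 of 19 for interferon response, 2 and 2 of 14 for immediate early genes, 2 and 1 of 13 for p53 targets and 0 and 2 of 12 for survival genes.

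Members differed among themselves by which score gene they held, in 3 sets defined after values had been seen. The 28 members with Retnla, 11 of suffix 3 and 17 of suffix 4, had a median of 3700.5 UMIs, and 2 were neutrophil-gene-high and 4 monocyte-gene-high. Their 371 Retnla UMIs were uneven, with 68 in 1 cell and 316 in 9 cells. Lyz2, lysozyme of neutrophils and macrophages, stood at 26983 and 34862 CPM in those of suffixes 3 and 4, against 4143 and 4727 CPM in other kept cells of these suffixes. Cybb, the NADPH oxidase subunit, stood at 760.4 and 988 CPM, against 153 and 154 CPM, and Fn1, fibronectin, at 147 and 251 CPM, against 35.1 and 29.1 CPM. Lpl was level in suffix 3 and higher in suffix 4, at 98.1 and 604 CPM, against 100.4 and 86.0 CPM, and Wfdc17 stood at 2232 and 2521 CPM, against 1376 and 897 CPM. They had no Prg2 UMI, which allows up to 27.6 CPM over both suffixes, so a difference from the 24.5 and 0.128 CPM of other kept cells was not detectable at this depth. They had Camp at 123 and 29.5 CPM, against 2232 and 1857 CPM. Lcn2 stood at 2502 and 1577 CPM, against 386 and 316 CPM. Those other kept cells include neutrophil-gene-high cells. With such cells left out, other kept cells had Camp at 115 and 60.1 CPM and Lcn2 at 61.4 and 69.3 CPM. Other neutrophil genes did not all follow Camp: Ngp stood at 8291 and 14.7 CPM, S100a8 at 7874 and 3715 CPM and S100a9 at 5789 and 2049 CPM. Those of suffix 3 lay above other kept cells, whose levels are given above. The 2 neutrophil-gene-high cells held 1873 and 917 UMIs of these genes and Camp per 10000. Summed over the lists, monocyte markers stood at 8537 and 7857 CPM and macrophage markers at 3164 and 3419.9 CPM, against 5883 and 6078 CPM and 1792 and 1331 CPM in other kept cells. Single genes made up much of these sums, Ly6c2 with 4980 and 3951 CPM and Wfdc17 with 2232 and 2521 CPM. For Ccr2 no difference was resolved: from 3 UMIs it stood at 49.1 and 14.7 CPM. Its interval over both suffixes, 5.70 to 80.7 CPM, takes in the levels of other kept cells given above.

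The 61 members with Prg3 and without Retnla held most of the Prg2 UMIs, 376 of 382, in 13 cells. In the 22 and 36 such members of suffixes 3 and 4 Prg2 stood at 2798 and 141 CPM, against 24.5 and 0.128 CPM in other kept cells of these suffixes, and at 1502 and 36.1 CPM without the top cell of each suffix, which held 164 and 24 UMIs. Of the 61, 12 were neutrophil-gene-high. Cd63 stood at 1513 and 1261 CPM, against 227 and 181 CPM, Cebpe at 537 and 413 CPM, against 109.8 and 99.1 CPM, and Camp at 7142 and 9135 CPM, against 2232 and 1857 CPM. Of monocyte genes, Fn1 stood at 0 and 8.79 CPM and Irf8 at 73.2 and 242 CPM, against 35.1 and 29.1 CPM and 554 and 605 CPM. The 184 members with Clec4a2 or Mogat2 and no UMI of Prg3 or Retnla, 174 of them in suffixes 3 and 4, included 95 neutrophil-gene-high cells. In those suffixes they had Camp at 16747 and 17127 CPM, S100a9 at 28555 and 18625 CPM and Lcn2 at 3020 and 2832 CPM, against 2232 and 1857 CPM, 3643 and 2234 CPM and 386 and 316 CPM in other kept cells. Prg2 stood at 7.45 and 4.33 CPM in them, against 24.5 and 0.128 CPM. All 3 sets had Cebpe above other kept cells in both suffixes, at 319 and 280.1 CPM with Retnla, 537 and 413 CPM with Prg3 and 525 and 556 CPM with Clec4a2 or Mogat2 alone, against 109.8 and 99.1 CPM.

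**Figure D5:**
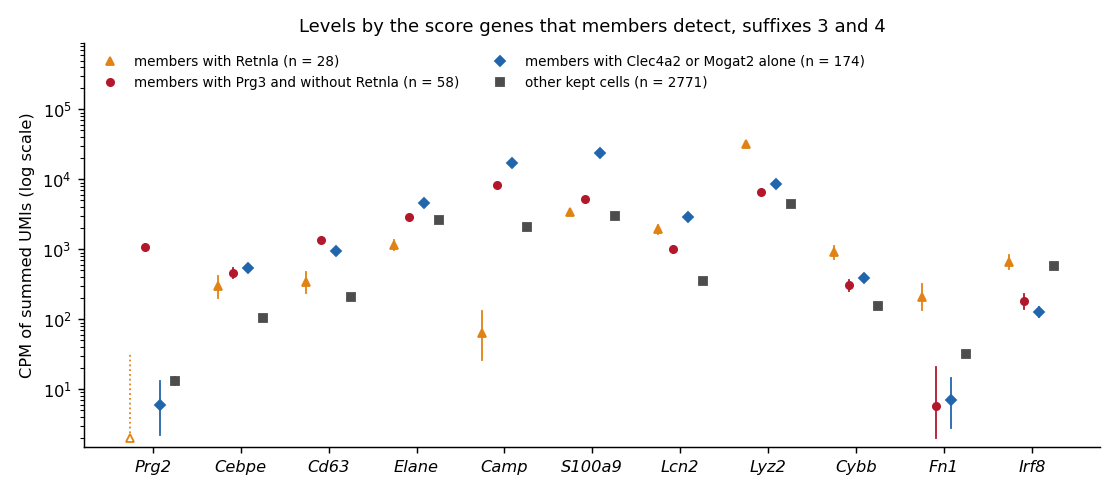
CPM of UMIs summed over suffixes 3 and 4 (log scale) of 11 genes in members with Retnla (28 cells), with Prg3 and no Retnla (58), with Clec4a2 or Mogat2 alone (174) and in other kept cells (2771), with exact Poisson 95% intervals; the open triangle is 0 with a dotted line to the interval's upper limit. Prg2 stands at 1073 CPM in the Prg3 set, from 13 cells, Lyz2 at 31905 CPM in the Retnla set and Camp at 16923 CPM in the third set.

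Members of suffixes 3 and 4 were also set beside the neutrophil-gene-high and monocyte-gene-high cells of the same suffixes that were no members, 147 and 259 cells. Cebpe stood at 515 and 488 CPM in members, against 447 and 619 CPM in neutrophil-gene-high and 40.9 and 39.2 CPM in monocyte-gene-high cells. Lyz2 stood at 8453 and 11084 CPM in members, against 5655 and 6189 CPM and 20183 and 24595 CPM in those populations. Siglecf stood at 55.7 and 55.4 CPM in members, against 23.2 and 20.4 CPM and 18.0 and 16.5 CPM, and Mgll at 35.7 and 38.3 CPM in members, against 18.2 and 29.2 CPM and 0 and 0 CPM. Clec4a2, a score gene, stood at 707 and 779 CPM in members, against 400.3 and 467 CPM and 152 and 214 CPM. The primary-granule-gene-high cells outside the members lie mostly in suffixes 1 and 2, 105 and 152 of 267, so suffix and population cannot be told apart there, and no difference between populations was tested.

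Shares of cells with a UMI depend on depth. With each cell thinned to 2000 UMIs, which left out 5 members and 109 other cells, Cebpe was detected in 63.6% and 57.5% of members of suffixes 3 and 4, against 15.5% and 14.6% of other cells, and Cd63 in 78.5% and 63.4%, against 23.5% and 20.3%. Cd63 was also in 56.8% and 30.8% of basophil- and mast-gene-high cells, which carry granules of their own. Prg3 is a score gene, so its excess in members is set by the rule. It was in 16.5% and 20.1% of members, against 0.822% and 1.04% of other cells and 0% of basophil- and mast-gene-high cells. Camp was in 58.7% and 38.1% of members, against 24.5% and 14.1% of other cells and 22.7% and 3.85% of basophil- and mast-gene-high cells. In suffix 3 the share of other cells with Camp was thus close to that of basophil- and mast-gene-high cells. In suffix 4 it was above it, but that suffix had only 27 basophil- and mast-gene-high cells before thinning. Unthinned, their share there was 22.2% (8.62 to 42.3), against 32.1% (29.5 to 34.7) of other cells, so the intervals overlap. The source of Camp in these cells was not tested. Of 208 barcodes above the mitochondrial limit, 1 (0.481%, 0.0122 to 2.65) had a score at or above the lowest member's.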

How the data were processed

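Single-cell RNA was measured in 4 mouse leukaemia samples, 1 per genotype and treatment. The deposited table holds whole-number UMI counts of 27998 genes in 5664 barcodes (the lowest with 1189 UMIs), made by the authors with Cell Ranger 1.3 against mm10, per the submitters' processing notes; the sources used here do not give the gene annotation. The 4 suffixes held 7644436 to 9932649 kept UMIs each. Barcodes over 10% mitochondrial UMIs were left out (208), leaving 5456. Members, gene lists, thresholds and scores were chosen with earlier results of these data known.

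UMIs were summed per suffix and side, scaled to CPM, and compared as log2 ratios with a pseudocount of 1 CPM, within suffixes holding at least 30 cells on each side, for genes at 5 CPM or more on either side. Intervals are exact at 95%; no p-value was computed. The floor is 3 counts. Score genes were left out of calls. Genes named are the score genes, the leading called genes by ratio and level, and list genes. Scrublet (scanpy 1.11.5) marked 24 cells (0.440%), 0 of them members, under the level at which the caller counts as having worked, so no doublet was removed. Alternatives changed the score, filters, scaling and cells compared. Steps ran in Python 3.11.15 with numpy 2.4.6, scipy 1.17.1 and pandas 2.3.3, and the calling step was tested on simulated data. C/EBP, GATA and PU.1 letters were searched in RefSeq promoter windows; 3 of 4 score genes had an entry. Coordinates are from GENCODE vM21. The result of 1 gene of the mature neutrophil list is not reported here.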

Additional observations from a re-analysis of the deposited data

How the results depend on the processing

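The share of members in suffixes 3 and 4, 95.2%, was 97.8% for the top 2.5% of cells, 89.4% with Clec4a2 left out of the score and 55.3% where the top 5% was taken within each suffix, a share that this rule fixes from the numbers of kept cells and that says nothing about where members lie. The 597 higher genes became 945 with ratios centred on the median gene, 383 at a minimum of 20 CPM and 378 among genes seen in at least 10% of cells on either side, a limit chosen after seeing the data. The 1276 lower genes became 729 with thinned cells, 785 with members taken within each suffix, 620 centred, 801 with median-of-ratios scaling and 797 at 20 CPM. Leaving out 1 suffix at a time gave 558 to 619 higher and 908 to 1162 lower genes. The secondary granule median of 2.21 ranged from 2.11 to 2.61 without 1 suffix; it was 3.93 for the top 10%, 2.5 without Prg3 and 2.49 without Mogat2 in the score, 2.46 thinned, 2.84 within each suffix, 2.42 centred, 2.61 at 20 CPM, 5.54 against other cells without neutrophil- and monocyte-gene-high cells, 5.40 against cells with no score-gene UMI and 1.32 with neutrophil-gene-high cells left out of both sides. The causes of these shifts were not tested. Genes that turned were Nkg7 (-0.80 for the top 2.5%, -0.035 without Mogat2), the log2 ratio of Lpl (0.24 without Mogat2, 0.0900 within each suffix), Clec4a1 (0.37), Klf4 (0.16) and Xiap (0.021) without Mogat2, Kit (-0.56 thinned), and Itgb2l (-0.15) and Slc2a3 (-0.30) without neutrophil-gene-high cells. Itgb2l and Slc2a3 were then under the 5 CPM limit on both sides, so their turn was not read. Of 2926 values for 133 named genes under the alternatives, 2521 stayed within the larger of the difference between suffixes and the counting error. Another 395 moved further, and 10, all of genes counted as higher or lower, changed sign. Of 506 values for 23 lists, 462 stayed within the like limit and 44 moved further. No list with a median past 1.5-fold changed sign.

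No paired analysis was possible because each group has 1 sample and barcode suffixes are not tied to samples. Suffixes 1 and 2, with 4 and 9 members, allow no ratio, and genes below 3 counts in members of a suffix (4.28 and 3.96 CPM in suffixes 3 and 4) cannot be told from 0.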
